A study of Mus musculus with 2 samples.

Results

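The enteroendocrine cells of the mouse anorectal junction were described here from 2 droplet single-cell libraries, 1 of unwounded (normal) tissue and 1 of wounded tissue. They were chosen by a count: among barcodes with more than 200 and fewer than 5000 detected genes and under 25% of unique molecular identifiers (UMIs, counted RNA molecules) from mitochondrial genes, a member had 2 or more UMIs summed over Chga, Chgb, Pyy, Insl5, Gcg and Sst. This gave 72 members of 6773 barcodes that passed the filters, out of 19780 barcodes in all. The normal library held 8 members of 1548 filtered barcodes (0.517%, exact 95% interval 0.223 to 1.02) and the wounded library 64 of 5225 (1.22%, 0.945 to 1.56). No member barcode occurred in both libraries, and 1 barcode of all those deposited did.

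Both libraries came from K17CreERT2;R26RGFP mice on a C57/BL6J background that had received tamoxifen, which activates Cre under the Krt17 promoter and labels transition zone (TZ) cells, where the squamous anal epithelium meets the glandular rectum. The normal library was prepared without a wound. The wounded library was prepared 1 week after rectal crypts had been stripped with hot EDTA and a brush. Each library pooled at least 5 mice of both sexes, so animals cannot be compared within a library. Cells were sorted on the epithelial surface protein Epcam with a dye against dead cells, scatter gates against doublets and exclusion of CD45, CD11b, CD31 and PDGFRa, a gate meant to remove immune, endothelial and fibroblast cells. With 1 library per condition, wounding and library cannot be told apart, and no test between them exists. All intervals are exact, at 95%, and cover counting error only. Members had a median of 9060.5 UMIs in the normal library (range 5766 to 13211) and 10420 in the wounded library (1037 to 34115). Other cells that the authors named Rectum, the glandular cells used for comparison, had medians of 10599 (61 cells) and 9979 (394 cells).

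Enteroendocrine cells are scattered hormone-secreting cells of the gut epithelium. They arise from crypt progenitors under transcription factors such as Neurod1, store peptides or serotonin in dense-core granules built with chromogranins and secretogranins, and release them when their lumenal receptors or ion channels are stimulated. In the distal bowel the main kinds are L cells, which make peptide YY (Pyy), proglucagon-derived peptides (Gcg) and insulin-like 5 (Insl5), enterochromaffin cells, which make serotonin through tryptophan hydroxylase 1 (Tph1), and D cells, which make somatostatin (Sst).

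The windows of 150 bases before the RefSeq start sites of Chga, Pyy and Gcg are shown because these genes belong to the rule that chose the members, Chga as a granule gene and the others as hormones. The windows, from GRCm38.p6, are at chr12:102554791-102554940 on the plus strand for Chga, chr11:102107833-102107982 on the minus strand for Pyy and chr2:62483654-62483803 on the minus strand for Gcg. They are written 5′ to 3′ on the gene's strand, and capitals mark matches on either strand to 3 motifs that did not overlap. The cAMP response element was spelled TGACGTNA. The E-box bound by Neurod1 and its relatives was spelled CAGATG. The TATA box was searched as the letters TATAAA.
Chga: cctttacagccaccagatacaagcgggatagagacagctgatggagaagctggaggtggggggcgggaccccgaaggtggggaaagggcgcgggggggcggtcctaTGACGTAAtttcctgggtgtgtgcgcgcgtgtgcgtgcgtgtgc
Pyy: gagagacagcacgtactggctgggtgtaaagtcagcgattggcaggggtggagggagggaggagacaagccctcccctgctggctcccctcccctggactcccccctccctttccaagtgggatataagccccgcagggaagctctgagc
Gcg: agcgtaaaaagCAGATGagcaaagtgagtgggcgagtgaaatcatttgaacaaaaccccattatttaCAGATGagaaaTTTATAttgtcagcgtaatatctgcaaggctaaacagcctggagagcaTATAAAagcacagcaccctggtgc
The cAMP response element of Chga began 44 bases before the start, the E-boxes of Gcg 139 and 83 bases before it, and its matches to the TATA letters 24 bases before it on the gene's strand and 72 bases before it on the opposite strand alone. The Pyy window held none of the 3 motifs as spelled. Among 32851 RefSeq windows of this length, 2.1% held the cAMP response element, 8.81% the E-box and 7.57% the TATA box. These matches are a description of letters and were not tested for function. The genes themselves lie at chr12:102554969-102565028 (Chga), chr11:102106676-102107832 (Pyy) and chr2:62474530-62483650 (Gcg) in GRCm38, all protein coding.

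The name enteroendocrine was checked with 12 genes outside the rule: the transcription factors Neurod1, Nkx2-2, Rfx6, Insm1, Isl1, Pax6 and Fev, and the granule or processing genes Scg3, Scg5, Scgn, Pcsk1n and Cpe. In the normal library 6 of 8 members (75%, 34.9 to 96.8) had 3 or more of the 12 with a UMI. Of the wounded members 31 of 64 (48.4%, 35.8 to 61.3) did. None of the 61 and 394 other Rectum cells did, which allows a share of up to 5.87% and 0.932%, and among all other filtered barcodes 3 of 1540 and 4 of 5161 did. After thinning every cell to 2000 UMIs the counts were 6 of 8 and 24 of 59 members, against 0 of 1455 and 0 of 4896 other barcodes. The label therefore held for most members of the normal library and for fewer than 1 in 2 of the wounded library. The remaining 33 wounded members had a median of 3 rule UMIs and a median of 1 of the 12 genes, and 32 of them had a UMI of Krt14, a keratin of stratified epithelium, with a median of 46. They are called members by the rule here, not enteroendocrine cells.

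**Figure D1:**
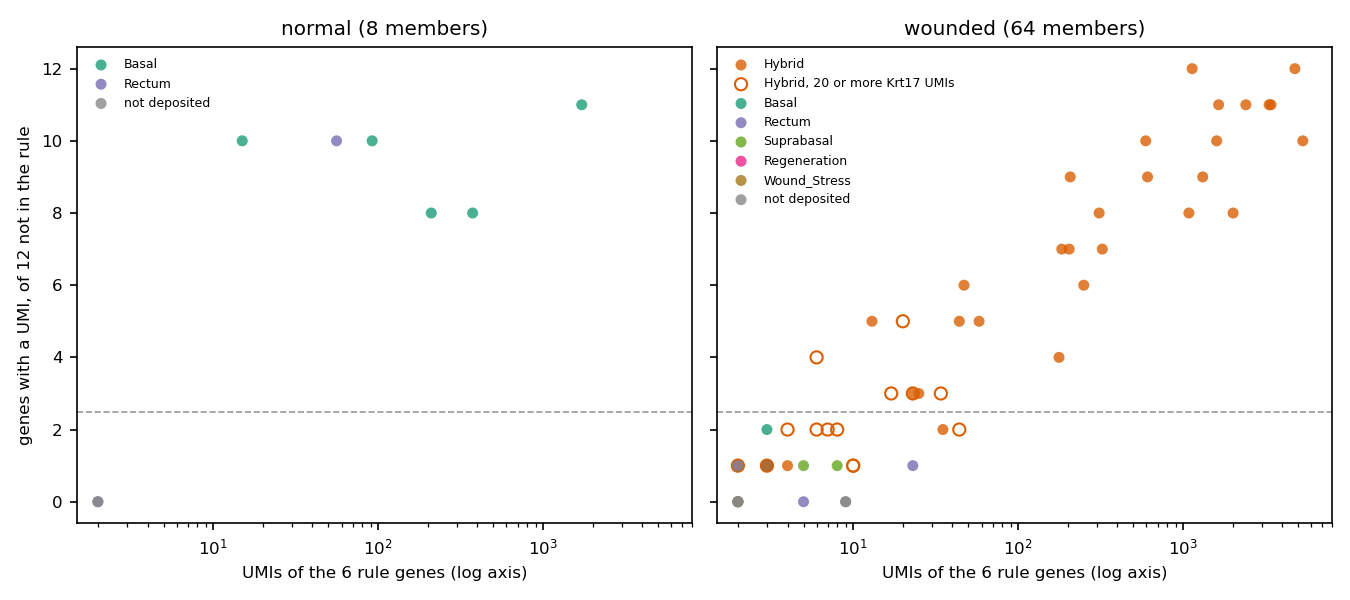
Each point is a member. The horizontal axis gives its UMIs summed over the 6 rule genes on a log scale, the vertical axis how many of 12 genes outside the rule had a UMI, and the colour the deposited name. Points above the dashed line had 3 or more of the 12. All 31 such wounded members were named Hybrid, 5 of them with 20 or more Krt17 UMIs (open circles), and 6 of 8 normal members lay above the line.

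The rule's threshold fell in a region where these cells were not told apart from others. Members with exactly 2 rule UMIs numbered 2 in the normal and 13 in the wounded library, and none had 3 or more of the 12 genes. Barcodes just outside, with exactly 1 rule UMI, numbered 27 and 177, and none of these did either. By contrast, 5 of 5 normal and 28 of 31 wounded members with 20 or more rule UMIs had 3 or more of the 12 genes. A single rule UMI was found in 6.09% of the other Rectum cells of the wounded library (median 9979 UMIs), in 4.25% of Regeneration cells (median 12637) and in 3.33% of Basal cells (median 9063.5). Squamous Anal Canal cells of the normal library, which should lack these genes, had one in 1.16% (0.377 to 2.68, median 8437.5 UMIs).

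Most members carried names other than Rectum, the glandular cluster, and 2 normal and 3 wounded members were named Rectum. Of the normal members 5 were named Basal (5 of 257 cells of that name), 2 Rectum (of 63) and 1 was not in the authors' table. The shares were 3.17% of Rectum and 1.95% of Basal cells, with overlapping exact intervals. None of 432 Anal Canal or 186 Suprabasal cells was a member. Of the wounded members 42 of 64 (65.6%) were named Hybrid, which is 13.3% (9.75 to 17.5) of the 316 Hybrid cells. The Hybrid name belongs to a cluster that the study described as a TZ state with squamous and glandular keratins. The other 22 wounded members were 7 Suprabasal, 3 Basal, 3 Rectum, 2 Regeneration and 2 Wound_Stress cells and 5 barcodes not in the authors' table. Together these 22 held 95 rule UMIs, at most 23 in 1 cell, and none had 3 or more of the 12 genes. The 42 Hybrid members held 31323 of the 31418 rule UMIs of all wounded members.

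The 8 normal members differed from one another in hormone content. The first, named Basal, had 1716 rule UMIs, of which 1684 were Pyy, with 10 of Insl5 and 2 of Gcg. A pair of Basal members had Chgb and Chga as their main rule genes. The first of the pair had 243 and 116 UMIs of these with 32 of Tph1, and the other 117 and 93 with 16 of Tph1. A further Basal member had 65 UMIs of Pyy and 27 of Chga, and a Rectum member 40 and 16. These 2 had the highest Isl1 counts of the 8 members, 34 and 13 UMIs. The sixth, named Basal, had 15 UMIs of Chga and none of the other 5 rule genes, yet 10 of the 12 outside genes. The last 2 members had 2 rule UMIs each and none of the 12 genes. One of these had 19 UMIs of the goblet gene Spink4 and the other 79 of Krt14.

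Pyy was the most abundant rule gene in both libraries, and its level depended on few cells. It reached 24269 CPM (a gene's UMIs scaled to a fixed total of UMIs of the same cells; 23163 to 25414) in normal members, with 93.2% of its UMIs in 1 cell. In wounded members it reached 34429 CPM (33994 to 34868), with 20.5% in the top cell of 39 with a UMI. Because the library is counted at transcript ends, CPM levels are not scaled by gene length. Chgb stood at 4862 CPM in normal and 3773 in wounded members, and Chga at 3828 and 1370. Insl5 had 11 UMIs in 2 normal members and 2419 in 18 wounded members, and Gcg 2 in 1 and 1076 in 12. No UMI of Sst was found in the normal members (0 of 74458 UMIs, which allows up to 49.5 CPM). It had 456 UMIs in 3 wounded members, with 404 in 1 cell. Members held 98.9% of all rule UMIs of filtered barcodes in the normal and 99.4% in the wounded library. The top 10 wounded members held 85.7% of the members' rule UMIs.

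**Figure D2:**
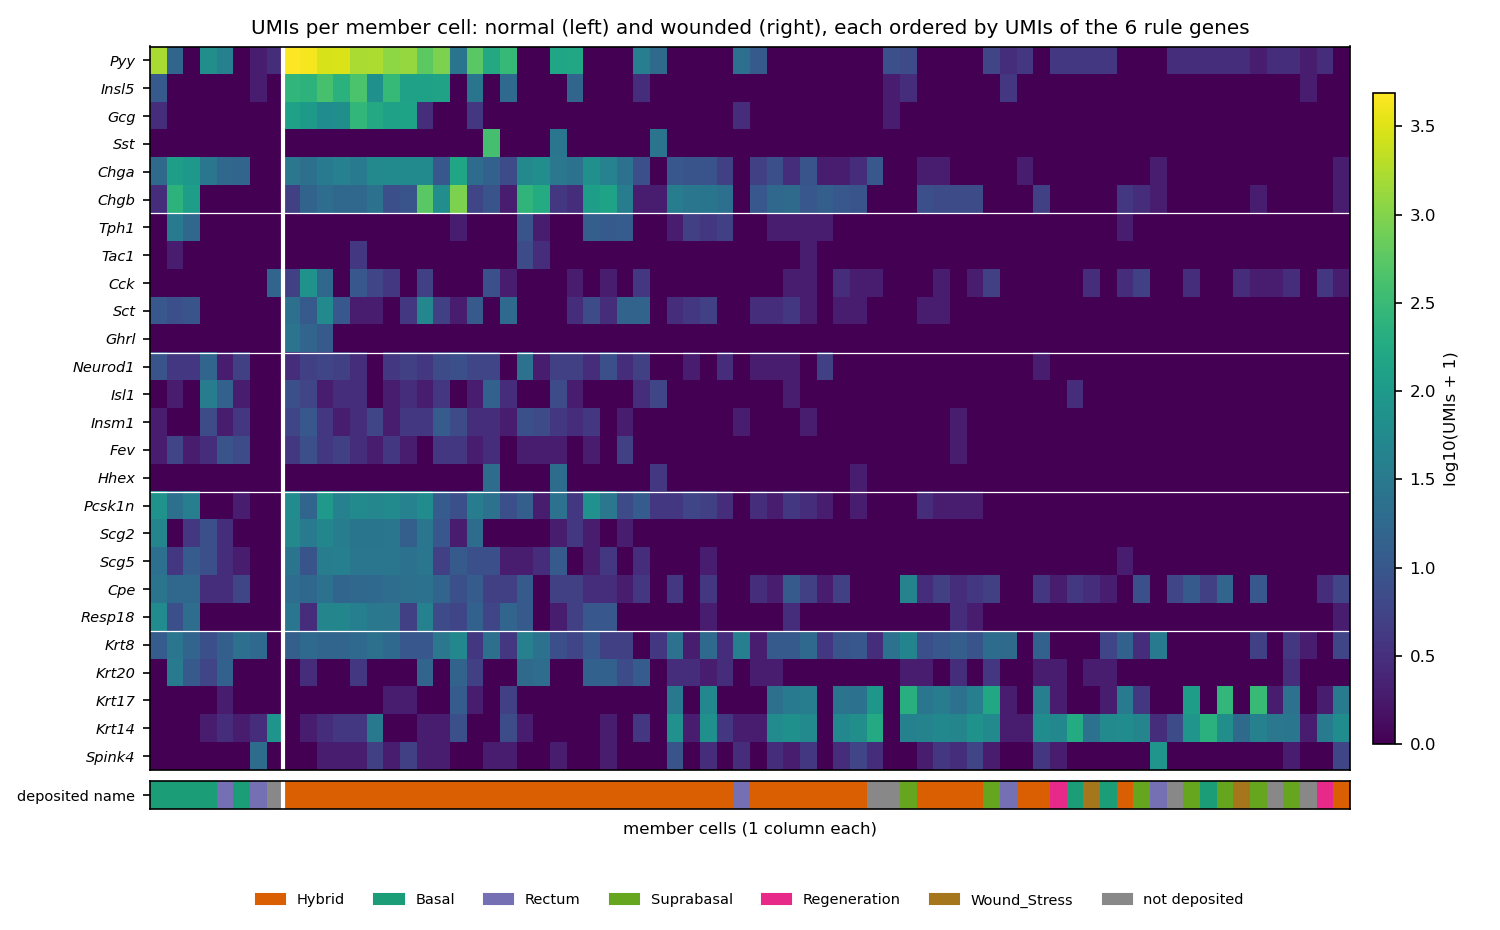
Each column is a member, with the 8 normal members left of the white line and the 64 wounded members right of it, ordered by UMIs of the 6 rule genes. Rows are genes, colour is log10(UMIs + 1), and the strip below gives the deposited name. Pyy, Insl5 and Gcg counts coincide in the leading wounded members, Tph1 marks other columns, and Krt14 and Krt17 counts lie mostly in columns with few hormone UMIs.

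Some hormones occurred together in members and others did not. In the wounded library all 18 members with Insl5 and all 12 with Gcg also had Pyy, and 11 had Insl5 and Gcg together. All 3 members with Sst also had Pyy. Tph1 was found in 15 members, all with Chgb, and 1 of them had Pyy and none had Insl5. Chgb is itself a rule gene, and a cell with Tph1 but none of the 4 peptide hormones could enter only through Chga or Chgb, so the overlap of Tph1 with Chgb was largely fixed by the rule. Of the 15, 6 were Krt17-rich members, described below, with 1 to 3 UMIs of Tph1. In the normal library Insl5 (2 members) and Gcg (1 member) likewise occurred with Pyy, and both members with Tph1 had Chgb. Of these 2, 1 also had Pyy, at 15 UMIs. Each member was then placed by whichever of Pyy, Gcg, Insl5, Sst, Tph1 and Tac1 had the most UMIs, if at least 2. Such a class is a range of counts and not a cell type. It gave 4 Pyy-led and 2 Tph1-led members in the normal library with 2 unplaced. In the wounded library it gave 34 Pyy-led, 7 Tph1-led, 2 Sst-led, 1 Insl5-led and 1 Tac1-led members with 19 unplaced. Of the 34 Pyy-led members 17 had 3 or more of the 12 genes, and of the 7 Tph1-led members 6 did. When the leading gene had to have at least 2 times the UMIs of each other gene, 34 remained Pyy-led, 6 Tph1-led and 1 Sst-led.

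Within the wounded library, Pyy-led and serotonin-led cells were set side by side after leaving out members with fewer than 3 of the 12 genes and the Krt17-rich members described below. The 17 Pyy-led cells had 10 to 4893 UMIs of Pyy (median 930), 0 to 443 of Insl5 (median 128) and 0 to 276 of Gcg (median 3). The 6 cells led by Tph1 or Tac1 had none of these 3 hormones, and 1 to 12 UMIs of Tph1 (median 9). Since hormone counts set the classes, the other genes are a description of cells from the same tissue and not of replicates. Scg5, Scgn, Isl1, Neurod1 and Pcsk1n, given below, are also among the 12 genes by which these cells were chosen. Of 1763 genes with at least 20 UMIs in both sums together, 13.2% were more than 2-fold higher and 14.2% more than 2-fold lower in the Pyy-led cells. Secretogranin 2 (Scg2) had 320 UMIs in 14 of 17 Pyy-led cells and 2 UMIs in 2 of 6 serotonin-led cells (log2 ratio 4.87, 3.003 to 7.92). The transcription factor Etv1 had 73 UMIs against 1 (3.74, 1.21 to 9.06), and Scg5, the 7B2 chaperone of prohormone convertase 2, 273 against 7 (2.83, 1.77 to 4.16). Secretagogin (Scgn), a calcium sensor, had 138 UMIs in 14 cells and the angiotensin receptor Agtr1a 49 in 12, and both were at 0 in the serotonin-led cells. With the 0 set to a floor of 3 UMIs over the group, the log2 ratios were 3.07 (lower limit 2.75) and 1.58 (lower limit 1.22). Isl1 (36 UMIs in 14 cells) was also at 0 there. The appetite hormone ghrelin (Ghrl) had 50 UMIs, all in 3 Pyy-led cells.

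Serotonin-led cells carried other genes at higher levels than Pyy-led cells. Chgb was at 21820 CPM against 8882 in the Pyy-led cells (log2 ratio −1.30, −1.42 to −1.17) and Chga at 7507 against 3311 (−1.18, −1.39 to −0.97). Both are rule genes, and the serotonin-led cells could be chosen only through them, so these ratios describe the selection as well as the cells. The Chgb value rested on few cells: 2 of the 17 Pyy-led cells held 911 and 562 of 1666 UMIs, the first with only 26 UMIs of Pyy. Without both, Chgb was at 1177 CPM and the log2 ratio −4.21 (−4.45 to −3.98), a subset chosen after the values were seen. The median was 9 UMIs a Pyy-led cell against 124.5. The aromatic amino acid decarboxylase Ddc, the enzyme that follows Tph1, had 96 UMIs in 15 of 17 Pyy-led cells and 62 in 4 of 6 serotonin-led cells, at a log2 ratio of −1.82 (−2.30 to −1.34). This rested on 1 serotonin-led cell with 38 UMIs. Without it the ratio was −0.93 (−1.58 to −0.22), and the medians were 4 UMIs in Pyy-led and 2 in serotonin-led cells. Gch1, which makes the Tph1 cofactor, had 26 UMIs against 17 (−1.84, −2.78 to −0.87). The sodium channel Scn3a had 38 UMIs in 6 of 6 serotonin-led cells and 26 in 11 of 17 Pyy-led cells (−3.001, −3.78 to −2.24). The mechanosensitive channel Piezo2 had 13 UMIs in 4 cells and 15 in 8 (−2.25, −3.42 to −1.06). Granule genes and transcription factors lay on both sides. Of the granule list, Syt7 (−3.45, −4.71 to −2.29), Rab3c (−2.21), Cadps (−1.52) and Snap25 (−1.31) were higher in serotonin-led cells. So were the factors Neurod1 (−1.81, −2.42 to −1.17) and Sox4 (−1.78, −2.51 to −1.03). However, 23 of the 37 serotonin-led Neurod1 UMIs were in 1 cell, and the median was 2 UMIs against 4 in Pyy-led cells. Keratin 19 had 40 UMIs in 6 of 6 cells against 8 in 4 of 17 (−4.78, −6.08 to −3.66), and keratin 20 72 against 50 (−2.98, −3.53 to −2.44). The processing gene Pcsk1n (580 and 122 UMIs, −0.20, −0.49 to 0.09) and Epcam (280 and 58, −0.18, −0.60 to 0.25) had intervals that included 0, but 73 of the 122 Pcsk1n UMIs lay in 1 serotonin-led cell, without which the ratio was 0.77 (0.35 to 1.22). In the 2 Sst-led members Hhex, a transcription factor of somatostatin cells, had 22 UMIs and was found in both. A further 19 UMIs of Hhex were in the 1 Pyy-led member that also had Sst, at 27 UMIs.

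Members were next compared with the other Rectum cells of their own library, as CPM of the summed counts. The rule used this contrast, since it chose cells for endocrine genes, so the values are a description with no test. Genes with at least 20 UMIs in both sums together were kept, and a gene was counted as higher or lower past a log2 ratio of 1. A gene with 0 or 1 UMI in the other Rectum cells was kept only through the members. It could only be counted as higher, so the counts of higher list genes below were partly fixed by this minimum. Of 4601 genes other than those of the rule in the normal library, 12.3% were higher and 17.8% lower. Of 10622 in the wounded library, 11% were higher and 10.8% lower. The medians over all genes were −0.02 and −0.01. Ratios against a sum of 0 were set at a floor of 3 UMIs and enter list medians as such bounds.

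The granule and prohormone processing genes were higher in members wherever they were counted often enough. Of 22 genes, all 8 compared in the normal library (median log2 ratio 6.67) and all 19 compared in the wounded library (median 6.21) were past 2-fold. Pcsk1n, the proSAAS inhibitor of prohormone convertase 1, had 753 UMIs in 37 wounded members against 1 in the 394 other Rectum cells (log2 ratio 12.11, 9.62 to 17.41). In normal members it had 137 UMIs against 0 (at least 8.70 on the log2 scale). Scg5 had 289 UMIs against 1 and 45 against 0 in the wounded and the normal library. Pcsk1n and Scg5 thus reached the minimum through the members and could only be counted as higher. Carboxypeptidase E (Cpe), which trims prohormones, was less exclusive, with 394 against 92 UMIs (4.65, 4.32 to 4.99) in the wounded and 66 against 8 (6.23, 5.17 to 7.50) in the normal library. It is also 1 of the 12 label genes, and was counted well outside the members, in 220 of the 252 other Basal cells of the normal library (537 CPM) and in 2191 of all 5225 filtered wounded barcodes (233 CPM). Syt7, a calcium sensor of exocytosis, was nearest the threshold in the wounded library at 1.15 (0.60 to 1.67).

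Of 18 enteroendocrine transcription factors, 4 of 5 compared were higher in normal members and 8 of 12 in wounded members (medians 2.05 and 3.15). None was lower over all members. Among members with 3 or more of the 12 genes and outside the Krt17-rich set described below, 4 of 5 were higher and 1 lower in the normal library. In the wounded library 10 of 12 were higher there and none lower. Several of these factors are among the 12 genes that chose that set. Neurod1 had 34 UMIs in 6 of 8 normal and 108 in 27 of 64 wounded members, and 0 in the other Rectum cells of either library. Insm1, a repressor needed for endocrine differentiation, had 79 UMIs in 23 wounded members against 9 in other Rectum cells (5.68, 4.69 to 6.86). Isl1 had 57 against 55 (2.60, 2.04 to 3.16). Sox4, Foxa1, Foxa2 and Mlxipl, which other crypt cells also use, were within 2-fold in the wounded library. Sox4 was at 166 CPM in both groups of wounded cells (log2 ratio 0.00, −0.30 to 0.29), and higher in normal members at 551 against 133 CPM (2.05, 1.48 to 2.60). The caudal intestinal factor Cdx2 had no UMI in members of either library, and 0 and 6 UMIs in the other Rectum cells of the normal and wounded library, too few to compare.

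Among the 14 other peptide hormones, secretin (Sct) was the most abundant. It had 24 UMIs in 3 normal and 244 in 28 wounded members (6.77, 4.76 to 9.90 and 5.78, 5.19 to 6.42 over Rectum). Cholecystokinin (Cck) had 163 UMIs in 30 wounded members (3.49, 3.102 to 3.88) and tachykinin 1 (Tac1) 12 in 4 (1.96, 0.78 to 3.099). Cck was not confined to cells with endocrine genes: its 15 normal UMIs all lay in the Krt14-rich member that had no Neurod1. Of 18 receptors 6 were compared in the wounded library and 4 were higher. These were Olfr78, a receptor for short-chain fatty acids (77 UMIs in 16 members, 0 in other Rectum cells), Agtr1a (51 in 13, 0), the somatostatin receptor Sstr1 (20 in 13, against 2) and the fatty acid receptor Ffar2 (47 in 13, against 53). The sugar transporter Slc5a1 and the receptor Ffar4 were within 2-fold. All 5 excitability genes compared were higher in wounded members, with Scn3a at 70 UMIs in 21 members and 0 in other Rectum cells. With 0 UMIs in other Rectum cells, Olfr78, Agtr1a and Scn3a could only be counted as higher. The serotonin list had 5 of 6 genes higher in wounded members, and Maob, a monoamine oxidase, was lower by a log2 ratio of −2.74 (−8.08 to −0.17). In the normal library 3 of 4 serotonin genes, 1 of 1 other hormone and none of 1 receptor was higher.

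**Figure D3:**
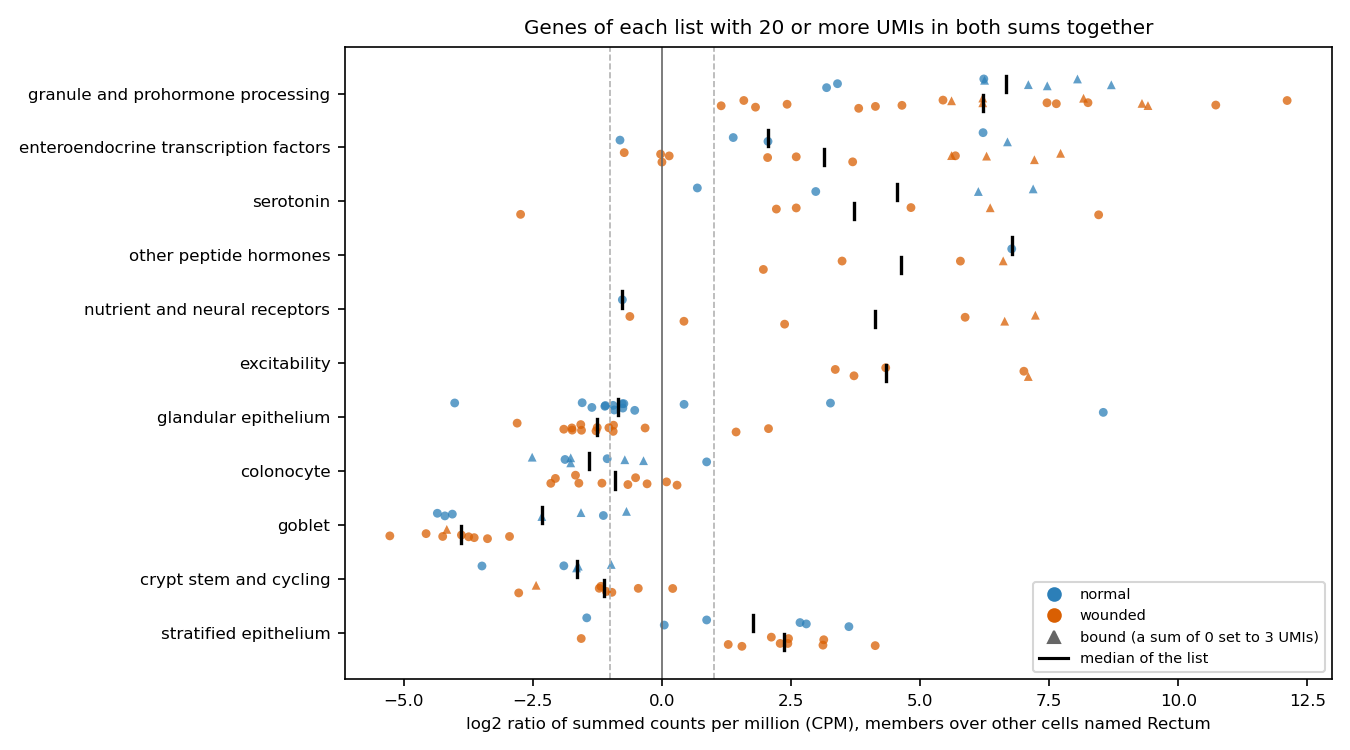
Each point is a gene of a list with 20 or more UMIs in members and other Rectum cells together. The horizontal axis is the log2 ratio of CPM, members over other Rectum cells, triangles are bounds, black lines list medians, and dashed lines a log2 ratio of 1 either way. Granule genes lie right of the threshold in both libraries, and goblet genes left of it in the wounded library.

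Goblet genes were lower in members, and over all members the colonocyte and crypt genes were lower or within 2-fold. All 9 goblet genes were past 2-fold lower in the wounded library (median −3.88) and 6 of 8 in the normal library (median −2.32). Spink4 was at 216 CPM in wounded members and 8324 in other Rectum cells (−5.27, −5.51 to −5.04). Atoh1, a secretory lineage factor, had no UMI in members of either library. Over all members, colonocyte genes were lower for 5 of 10 in the wounded and 5 of 8 in the normal library. None was higher. Among members with 3 or more of the 12 genes and outside the Krt17-rich set described below, the counts differed. There 7 of 10 were lower and 2 higher in the wounded library, and 4 of 8 lower and 1 higher in the normal library. Crypt stem and cycling genes were lower over all members for 5 of 8 in the wounded and 4 of 5 in the normal library. In the wounded library Mki67 and Top2a were within 2-fold, with 80 Mki67 UMIs in 7 members, 32 and 34 of them in a Basal and a Rectum member with 3 and 2 rule UMIs. Of 15 glandular epithelium genes, 9 of 14 compared were lower in wounded members and 5 of 14 in normal members. One was Krt8 in the wounded library, at 1004 against 2391 CPM (−1.25, −1.36 to −1.14). In the 26 wounded members that had 3 or more of the 12 genes and were not in the Krt17-rich set described below, Krt8 was within 2-fold, at 1454 CPM (−0.72, −0.88 to −0.56), as were Krt18 and claudin 7, and 6 of 14 glandular genes were lower. Exceptions were keratin 20, higher by 1.44 (1.14 to 1.73) and 3.26 (2.71 to 3.82) in the wounded and normal libraries, and claudin 4, higher by 2.06 (1.66 to 2.47) and 8.55 (5.99 to 13.88). The normal claudin 4 ratio rested on 1 UMI in the other Rectum cells, against 41 in members.

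Genes outside the lists were named by the size of the smaller of the 2 libraries' ratios, and 24 qualified with 20 or more UMIs in members of each. The first were Map1b, Aplp1 and Tuba1a, and a shared function of the 24 was not tested. Map1b, a microtubule-associated protein, had 40 UMIs in 6 of 8 normal and 179 in 36 of 64 wounded members, against 1 and 0 in other Rectum cells. Aplp1, related to the amyloid precursor protein, had 20 and 121 UMIs (against 0 and 9), and the tubulin Tuba1a 40 and 183 (against 0 and 18). The growth arrest gene Gadd45g was higher by 4.996 (3.64 to 6.59) and 3.80 (3.44 to 4.17). Others were Bex2 (4.53 and 2.27), Apoe (3.72 and 2.32), Fabp5 (2.83 and 2.15), Id3 (3.72 and 1.92) and the autophagy gene Map1lc3a (3.73 and 1.75), each in the order normal and wounded. Lgals7, a galectin of stratified epithelium, was also among them, at 3.85 and 2.55. These ratios cover all members, including the 33 wounded members under 3 of the 12 genes, and no values without those members are given. Fabp5 had a UMI in 59 and Lgals7 in 55 of the 64 wounded members, so neither was confined to members that passed the label check.

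Markers of some other cell types, chiefly stratified epithelium, were higher in wounded members as a whole than in other Rectum cells. No stratified epithelium gene was past 2-fold higher in the 26 wounded members that had 3 or more of the 12 genes and were not Krt17-rich. Of 10 stratified epithelium genes, 10 of 10 had a UMI in wounded members. These summed to 7147 CPM against 1006 in other Rectum cells, with Krt14 (2092 UMIs) the most abundant, and 9 were past 2-fold higher. In the 26 members the list summed to 495 CPM, 5 of 10 genes were past 2-fold lower, where 20.3% of 10325 genes were higher and 12.5% lower. Krt14 was at −0.35 (−0.74 to 0.011) and Krt17 at −0.82 (−1.58 to −0.14) there. In normal members 7 of 10 had a UMI (1813 against 402 CPM), and 79 of the 85 Krt14 UMIs were in 1 cell. Of 6 genes compared in normal members, 3 were past 2-fold higher and 1 lower. Without the members under 3 of the 12 genes, 2 of 6 were still higher and 1 lower, and the normal Krt14 ratio was −0.21. These rested on few UMIs, with Krt14 and Krt10 at 4 each, and the list summed to 281 CPM against 402 in other Rectum cells. Fibroblast genes (6 of 6 with a UMI, 545 against 245 CPM, led by Col3a1 with 172 UMIs) were higher in wounded members for 3 of 5 compared. However, 105 and 59 of the Col3a1 UMIs lay in a pair of barcodes not in the authors' table, and among deposited members alone the Col3a1 ratio was −3.01. In the 26 members 4 of 5 fibroblast genes were lower and none higher. Merkel cells, the neuroendocrine cells of skin, share Isl1 and Krt20 with enteroendocrine cells. Of 7 Merkel genes, 4 of 5 compared were higher in wounded members and 2 of 3 in normal members, while Atoh1, Gfi1 and Pou4f3 were at 0 and the wounded members had 6 UMIs of Sox2. In the 26 members 3 of 4 were higher and 1 lower. Of 8 hair follicle and anal gland genes, 2 of 3 compared were higher in wounded members, led by Plin2 with 160 UMIs, and none of 2 in normal members. None of the 3 was higher in the 26 members. Of the immediate-early and wound list, 7 of 14 were higher and none lower in wounded members, and 3 of 8 were higher and 1 lower in normal members. In the 26 members 7 of 14 were likewise higher, but Ier3, Atf3, Zfp36 and Nr4a1 were within 2-fold there and past it in all members, and Jun, Fos, Fosb and Hspa1a the reverse. Neural and glial genes had 13 and 26 UMIs in normal and wounded members, most of them Tubb3 (9 and 18). Tuft cell genes summed to 0 and 12.97 CPM in normal and wounded members, against 0 and 9.35 in other Rectum cells. Endothelial genes summed to 0 and 1.44 CPM, against 4.42 and 1.97, and immune genes to 13.4 (1 UMI) and 4.32, against 0 and 16.5. The part of these cells in the members' values was not tested beyond the subsets given. Doublets were not called.

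The Hybrid members fell into a group with and a group without Krt17. This division was made after the values were seen, at 20 UMIs of Krt17. It gave 14 Krt17-rich members with 22 to 52 UMIs of Krt17 (median 31.5), and 28 others, of which 23 had none and the highest had 11. The 28 others had 26 cells with 3 or more of the 12 genes, Pyy at 100530 CPM, Krt8 at 1443 CPM and Krt17 at 75.9 CPM. The 14 Krt17-rich members had 43 to 77 UMIs of Krt14 and 5 to 23 of Krt8, and 5 of them had 3 or more of the 12 genes. Their rule UMIs were 194 of Chga and Chgb, from 2 to 44 a cell, with no UMI of Pyy, Insl5, Gcg or Sst. They were therefore members through Chga and Chgb alone, and Chgb, with 154 UMIs in them, cannot be read against other barcodes, which the rule left out for having fewer. Tph1 was found in some of them at 1 to 3 UMIs a cell. Granule genes summed to 665 CPM in them, 11519 in the other Hybrid members and 326 over all filtered barcodes.

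Krt17 and Krt8, the squamous and glandular keratins, were both counted at 2 or more UMIs in 14 of 14 Krt17-rich members, in 2 of 28 other Hybrid members and in 14 of 274 Hybrid cells that were not members. The Krt17 part of this count was fixed by the choice of the 14 at 20 UMIs, and the median depths were 10648 UMIs in them, 7569 in the other Hybrid members and 2160 in the Hybrid non-members. The 14 were of like depth, 8808 to 13294 UMIs, and had 15.3 to 23.9% mitochondrial UMIs (median 20.7). The medians were 5.42% in the other Hybrid members and 8.38% in Hybrid non-members. The 14 varied little among themselves. Over 212 genes with at least 5 expected UMIs, the spread between cells was 1.56 times that of counting error alone. Cells of like depth gave 13.4 times for 7 other Hybrid members, 9.61 for 15 Hybrid non-members, 16.6 for 73 Rectum, 21.5 for 152 Basal and 5.73 for 281 Wound_Stress cells. Of 180 genes with 100 or more UMIs in the 14 cells, 161 were within 2-fold of the level in all other filtered barcodes of the library. Apart from the rule gene Chgb, Slpi (2.41, 2.23 to 2.58), Lgals4 (2.16, 1.97 to 2.35) and Krt8 (2.13, 1.90 to 2.36) were the highest of the 17 above. Their barcodes differed from one another at 5 or more bases. Whether the 14 barcodes hold single cells was not tested.

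**Figure D4:**
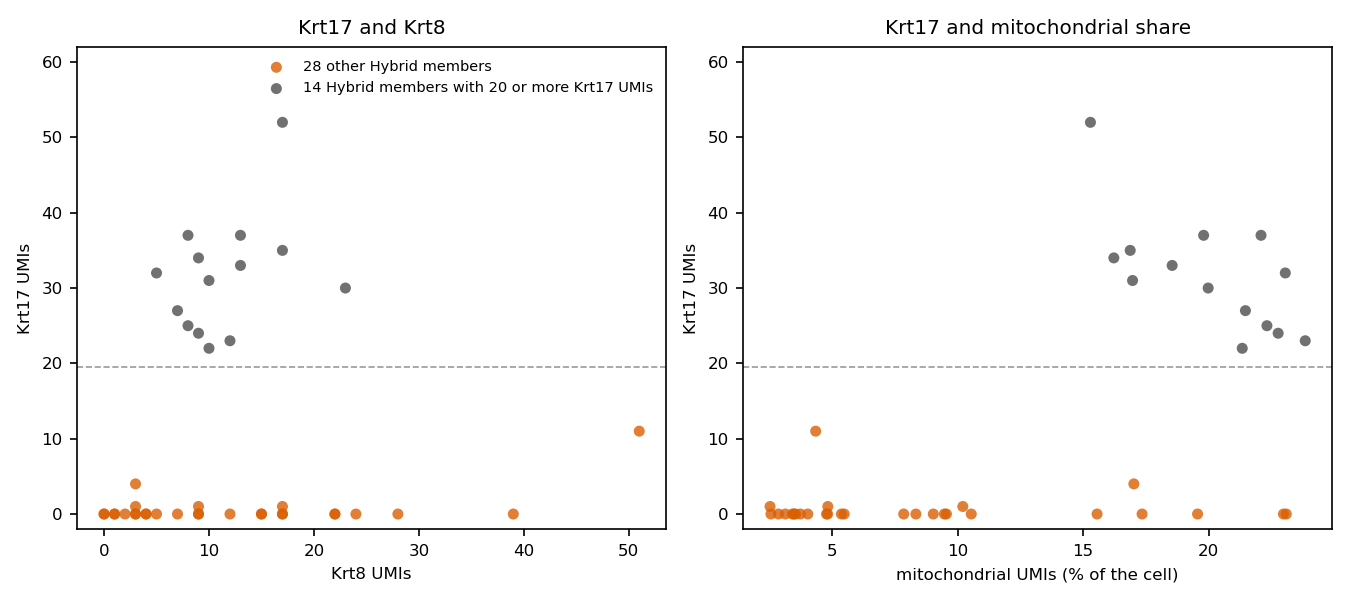
Each point is a Hybrid member of the wounded library. Both vertical axes give Krt17 UMIs, the left horizontal axis Krt8 UMIs and the right one the mitochondrial share. The 14 members at 20 or more Krt17 UMIs (dashed line) lie between 15.3 and 23.9% mitochondrial UMIs, and the 28 others have 0 to 11 Krt17 UMIs at any mitochondrial share.

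In the normal library the 5 members named Basal had no UMI of Krt17, where the 252 other Basal cells had 2296 CPM with a UMI in 236 cells. They had 7 to 27 UMIs of Krt8 (2217 CPM), against 48.7 CPM in other Basal cells, and 0 to 1 UMI of Krt14. They thus carried the glandular keratin Krt8 at a higher level than the other cells of that name and had no UMI of Krt17, the keratin that 236 of the others carried.

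Wounded and normal members were compared with the limit that 1 library stood for each condition. Among all members, 15.8% of 4945 genes were more than 2-fold higher and 15.8% lower in the wounded library. Krt17 was among the higher, at 2370 against 13.4 CPM (7.46, 4.98 to 12.77), with 1091 of its 1645 wounded UMIs in 7 Suprabasal members and 442 in the Krt17-rich members. The comparison was repeated with members that had 3 or more of the 12 genes and were not Krt17-rich, 26 wounded and 6 normal cells. Of 2326 genes 18.1% were higher and 11.5% lower, and the Krt17 ratio was 1.93 (−0.73 to 7.31), on 18 wounded UMIs and 1 normal UMI. This subset was chosen after the values were seen.

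The hormone counts of these cells differed between the libraries. Pyy, Insl5, Gcg, Chgb and Chga are genes of the rule that chose the members, so their ratios are a description and not a test. Insl5 was at 10284 CPM in 26 wounded and 201 in 6 normal cells (5.68, 4.80 to 6.74), Gcg at 4575 and 40.2 (6.83, 4.97 to 9.88) and Pyy at 101573 and 36259 (1.49, 1.42 to 1.56). The normal values came mostly from 1 cell, which held all 10 Insl5, both Gcg and 1684 of the 1804 Pyy UMIs. Without it the Pyy ratio was 5.12 (4.86 to 5.39), and Insl5 and Gcg were at 0 in the 5 remaining normal cells. Tph1 was lower in the wounded cells, with 48 UMIs in each group (−2.24, −2.85 to −1.63), but 32 of the normal UMIs were in 1 cell, without which the ratio was −0.84 (−1.68 to 0.077). The transcription factor Fev was at −1.40 (−2.17 to −0.60), and 11 of its 23 normal UMIs were in Pyy-led and 6 in serotonin-led cells. Serotonin-led cells were 2 of the 6 normal and 6 of the 26 wounded cells. Chgb (0.51, 0.35 to 0.68) and Chga (−0.59, −0.78 to −0.39) were within 2-fold, though the Chgb ratio was 1.93 (1.66 to 2.21) without the normal cell with the most Chgb and −0.082 (−0.25 to 0.088) without the wounded one. Over the granule list the median was −0.01, against −0.85 over all members, where 7 of 18 genes were lower. Of the transcription factors, Isl1 (−2.10, −2.68 to −1.51) and Nkx2-2 (−2.78, −4.03 to −1.58) were lower in the wounded cells, and 47 of the 49 normal Isl1 UMIs came from 2 cells. Without the higher of these the Isl1 ratio was −0.69 (−1.54 to 0.24). Olfr78 (3.01, 1.11 to 6.08) and Scn3a (2.85, 0.94 to 5.92) were higher, on 2 normal UMIs each. Keratin 19 was lower by −2.72 (−3.28 to −2.18), against −0.73 (−0.81 to −0.65) in the other Rectum cells, and 62 of the 70 normal Krt19 UMIs were in the 2 serotonin-led cells. Without the higher of these the ratio was −1.59 (−2.28 to −0.87). Claudin 4 was lower by −1.81 (−2.42 to −1.19) in the endocrine cells and higher by 4.40 (1.89 to 9.71) in the other Rectum cells, the latter on 1 normal UMI. Of its 41 normal UMIs in endocrine cells 25 were in the 2 serotonin-led cells, and without the higher of these the ratio was −1.23 (−1.94 to −0.47). Leaving out single cells was decided after the values were seen.

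Genes of the immediate-early and wound list, many of which respond to stimulation and to tissue dissociation, were higher in the wounded cells for 5 of 8 compared (median 1.61). They included Fosb (3.44, 1.55 to 6.50), Egr1 (2.06, 0.98 to 3.40) and Jun (1.71, 1.14 to 2.34). These rested on 2, 7 and 26 normal UMIs. In the other Rectum cells 8 of 14 of the same list were higher (median 1.31), with Fosb at 1.41, Egr1 at 0.40 and Jun at 1.76. Background shares in the other Rectum cells were 12% higher and 6.24% lower of 10163 genes. Whether the shift differs between the cell types was not tested.

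**Figure D5:**
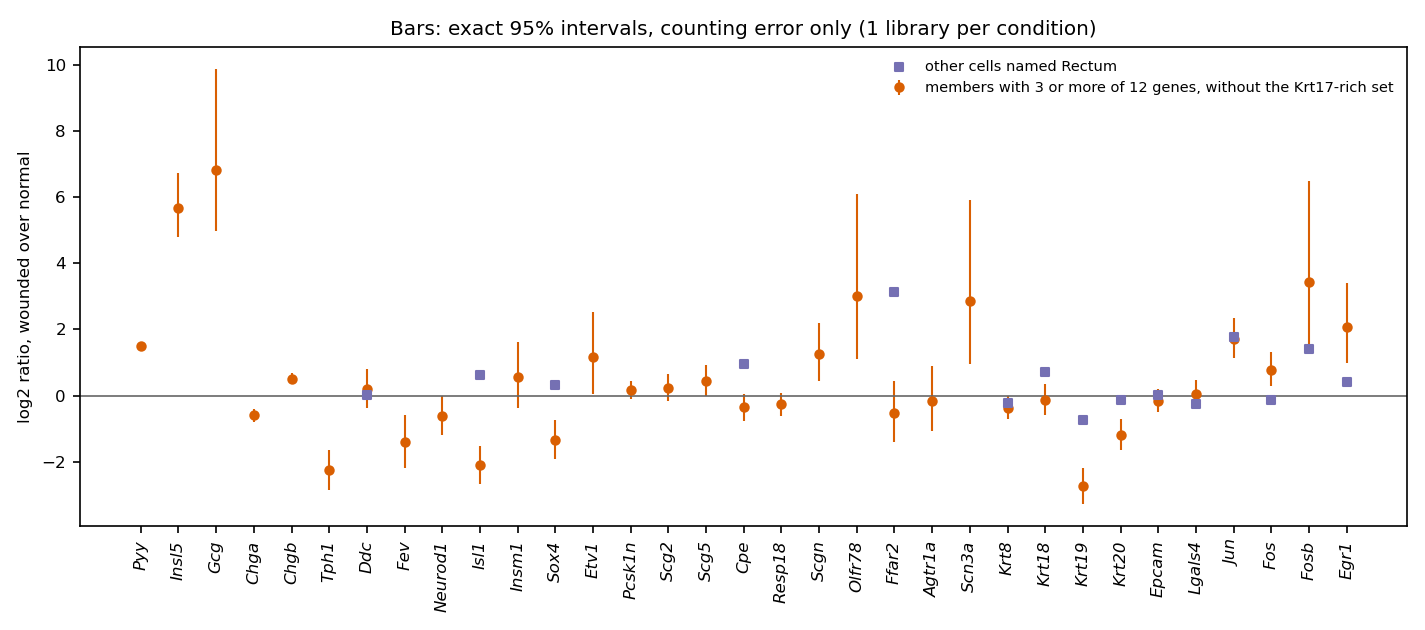
The vertical axis is the log2 ratio of CPM, wounded over normal. Orange points are members with 3 or more of the 12 genes outside the Krt17-rich set (26 wounded, 6 normal cells) with exact 95% counting intervals, and squares the other Rectum cells where 20 or more UMIs were counted. Insl5 and Gcg lie above 4 and Tph1, Isl1 and Krt19 below −2, while most granule genes lie near 0. The Pyy, Insl5, Gcg, Tph1 and Isl1 values rest on 1 or 2 of the 6 normal cells.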

How the data were processed

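Raw UMI counts per gene and barcode were deposited by the authors as made with Cell Ranger on mm10. The file headers name version 3.1.0 for the normal library and 4.0.0 for the wounded library, whereas the methods state 3.1.0. The authors also deposited, for 939 and 4147 cells kept in Seurat 3.2.2, a name per cell and natural log values, ln(count + 1), of which only the names were used here. Their removal of contaminating clusters before naming means that a missing name marks a cell they left out.

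Members and gene lists were chosen with earlier results of these data known. UMIs were summed over cells, and ratios of CPM were computed for genes with at least 20 UMIs in both sums together, with a log2 ratio of 1 as the threshold and a floor of 3 UMIs for a sum of 0. Intervals (95%) were exact Poisson for levels, Clopper-Pearson for shares and exact binomial for ratios. Genes named were those of 20 fixed lists and, outside them, the 20 genes with the largest smaller-of-both-libraries ratio among those past the threshold in both, with at least 20 UMIs in members of each. Genes singled out in the Krt17-rich set were chosen after their values were seen. No doublet caller was run. Depth was 17617944 UMIs over 2564 barcodes for the normal and 88260050 over 17216 for the wounded library. Promoter windows came from RefSeq (GRCm38.p6) and gene positions from GENCODE annotation of the same build. Python 3.11.15 with numpy 2.4.6, pandas 2.3.3, scipy 1.17.1 and matplotlib 3.10.9 was used, and the code was tested on simulated data. For normal members over other Rectum cells, the direction was recovered for 82 of 93 genes changed by a log2 of 2. At a log2 of 3 it was recovered for 93 of 107. In the wounded library 100 of 100 were recovered at either size. Alternatives covered the UMI threshold, the mitochondrial limit, thinning, the rule genes, the count minimum and subsets of members.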

Additional observations from a re-analysis of the deposited data

Results flagged for a closer look

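Some kinds of barcode outside the filters also met the UMI rule and entered none of the comparisons. In the wounded library 56 barcodes with 25% or more mitochondrial UMIs, of 8972 in the same size range, had 2 or more UMIs of the 6 rule genes. Together they held 4855 rule UMIs, with a median of 3. Of the 56, 33 had 2 to 4 rule UMIs, 11 had 20 or more, and 13 had 3 or more of the 12 genes outside the rule. Their median mitochondrial share was 51.7% and their median depth 3014.5 UMIs. In the normal library none of 460 such barcodes met the rule.

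Barcodes with 5000 or more detected genes and under 25% mitochondrial UMIs numbered 86 in the wounded library, of which 6 met the rule. These 6 held 3389 rule UMIs and 4 of them had 3 or more of the 12 genes. In the normal library 1 of 9 did, with 2 rule UMIs, and it had 3 or more of the 12 genes. Whether these large barcodes hold single cells was not tested.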

How the results depend on the processing

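No paired analysis was possible because each condition had 1 library, and for the same reason no replicate could be left out. The number of members followed the threshold. With 20 or more rule UMIs there were 5 normal and 31 wounded members. Among wounded barcodes the rule found 30 under 10% mitochondrial UMIs, 120 with no mitochondrial limit, 32 after thinning to 2000 UMIs and 38 without Chga and Chgb in the sum. The share of members with 3 or more of the 12 genes was 100% in the normal library at 5 or more and at 20 or more rule UMIs. In the wounded library it was 70.5% and 90.3% at those thresholds and 63.3% under 10% mitochondrial UMIs.

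Over other Rectum cells, a minimum of 50 UMIs left 129 genes higher and 367 lower in normal members and 529 higher in wounded members, and wounded members with 3 or more of the 12 genes had 1759 higher, or 2100 without the Krt17-rich members too, against 1168 for all members. Between wounded and normal members, genes higher numbered 448 at 20 or more rule UMIs, 476 under 10% mitochondrial UMIs, 416 with 3 or more of the 12 genes and 422 when the Krt17-rich members were also left out, against 783. Genes lower numbered 355, 411, 332 and 268 in the same order, against 779. Wounded Pyy-led cells were 21 at 5 or more and 18 at 20 or more rule UMIs, 22 under 10% mitochondrial UMIs and 17 with 3 or more of the 12 genes, against 34. Under 10% mitochondrial UMIs there were 4 Tph1-led and 1 Sst-led wounded cells, and requiring 2 times each other gene also left 1 Sst-led cell.

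Some list genes changed sign between settings, and the cause was not tested. In normal members over other Rectum cells, Krt14 was −0.21 at 5 or more rule UMIs and with 3 or more of the 12 genes, and −0.44 at 20 or more. In wounded members at 20 or more rule UMIs the ratios were −3.35 for Col3a1, −1.46 for Col1a2, −2.11 for Col1a1, −0.18 for Plin2, −0.18 for Sfn and −0.28 for Krt15. Under 10% mitochondrial UMIs they were −3.61 for Col3a1, −3.31 for Col1a2 and −2.37 for Col1a1, and among deposited members −3.01, −2.54 and −3.77 in that order. With 3 or more of the 12 genes they were −3.30 for Col3a1, −1.42 for Col1a2, −3.65 for Col1a1, −0.076 for Plin2 and −0.044 for Sfn, and the mean of the per-cell CPM gave −0.38 for Col3a1. Leaving out the Krt17-rich members as well gave −4.58 for Col3a1, −2.69 for Col1a2, −1.75 for Col1a1 (no UMI, at the floor), −0.43 for Plin2, −3.38 for Sfn, −1.08 for Krt15, −0.35 for Krt14, −0.82 for Krt17, −1.19 for Krt6a, −2.26 for Krt5 and −0.95 for Ier3. Between wounded and normal members, Smoc2 was −0.42 at 5 or more and −0.18 at 20 or more rule UMIs, St18 was 0.87 at 20 or more and 0.92 under 10% mitochondrial UMIs, and Syt13 was 1.09 and 0.86. Without the Krt17-rich members and those under 3 of the 12 genes, 22 of 95 list genes with a value in both sets had the opposite sign. Of these, 2 had been past 2-fold in all members, Zfp36 (now −0.50) and Krt5 (now −1.24). Among the others were Chgb (−0.37 to 0.51), Pcsk1n (−0.76 to 0.17), Agr2 (0.83 to −0.50), Phgr1 (0.53 to −1.97) and Sox9 (0.36 to −1.24). Of the other values of list genes, those that moved by more than their counting interval numbered 61 beside 300 that did not in normal members over Rectum, 263 beside 712 in wounded members over Rectum and 72 beside 253 between the libraries. Leaving out the Krt17-rich members, single cells or the 2 Pyy-led cells with the most Chgb, and limiting members to those with 3 or more of the 12 genes in the label, Rectum and class comparisons, were chosen after seeing the data. With 8 normal members, and 6 after the label check, single cells set many normal levels. Leaving out the 1 cell with the most UMIs of a gene, on either side, took the Tph1 and Isl1 ratios between wounded and normal members within 2-fold and the Ddc and Isl1 ratios between Pyy-led and serotonin-led cells within 2-fold (Isl1 from a bound of 1.13 to one of 0.97 without the top Pyy-led cell and 0.66 without a serotonin-led cell), and put Chgb between wounded and normal members past 2-fold.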
